A study of Arabidopsis thaliana with 15 samples.

Results

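The 10 genes described here carry nitrate from the soil solution into the amino acid pool of Arabidopsis thaliana: NRT1.1 (AT1G12110), NRT2.1 (AT1G08090), NRT2.2 (AT1G08100), NIA1 (AT1G77760), NIA2 (AT1G37130), NIR1 (AT2G15620), NLP7 (AT4G24020), GLN2 (AT5G35630), GLT1 (AT5G53460) and GLU1 (AT5G04140). They are 10 of 27444 nuclear protein-coding genes, chosen by name for their place in the pathway, with the peaks of 3 histone marks over their bodies already known. Those peaks are also the values given below, so they are a description and carry no test. The series held 15 native ChIP-seq and MNase-seq libraries from whole seedlings of the Col-0 accession: a bdrs triple mutant, whose alleles the labels do not name, the fpa-7 single mutant and wild type, each with 1 library of H3K4me2, of H3K4me3, of H3K36me3, of total H3 and of the MNase-cut input. Seeds were kept cold for 4 days and seedlings grown for 8 days on MS medium, which supplies both nitrate and ammonium, at 21 °C with 16 h of light. For 1 library, the bdrs input, the source name gives 7 days where the age field gives 8. Per the peak names, the peaks were called on pooled libraries of a mark against pooled H3 libraries, and the labels name each list for the 3 libraries of its mark, so a genotype has no value of its own here. There were no replicates, the read depth behind a peak is unknown, and mutants and wild type are not compared.

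Plants take up nitrate through transporters of the NRT1 and NRT2 families. Nitrate reductase turns it into nitrite in the cytosol, nitrite reductase turns nitrite into ammonium in plastids, and the cycle of glutamine synthetase and glutamate synthase binds the ammonium into amino acids. Transporter and reductase genes are known for rapid induction by nitrate. H3K4me3 marks the starts of transcribed genes, H3K36me3 the bodies of genes under transcription, and H3K4me2 in plants is found on many genes, silent ones included.

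Of the 10 genes, 7 carried all 3 marks, and the 3 exceptions were NRT2.2 with no listed peak, NRT2.1 with H3K4me2 alone and NIA1 without H3K36me3. A mark was counted as carried when its peaks overlapped 200 bp or more of the gene. H3K4me2 was carried by 9 genes (75.0% of all protein-coding genes), H3K4me3 by 8 (62.7% of all), H3K36me3 by 7 (49.9% of all) and the 3 marks together by 7 (46.6% of all). The members were long, from 1951 bp to 10110 bp with a median of 3626 bp, against a median of 2078 bp for all genes. Among the 14900 genes at least as long as NRT2.2, the shortest member, the shares were 88.1%, 79.1% and 67.0% for H3K4me2, H3K4me3 and H3K36me3, and 64.2% for all 3 marks together. The members' counts of 9, 8, 7 and 7 of 10 lie near those shares. The smallest overlap that counted was 576 bp, on NRT2.1, and the only one that did not count was 91 bp at the far end of GLT1, under an H3K4me3 peak whose summit lies in the neighbouring gene ACBP1.

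**Figure D1:**
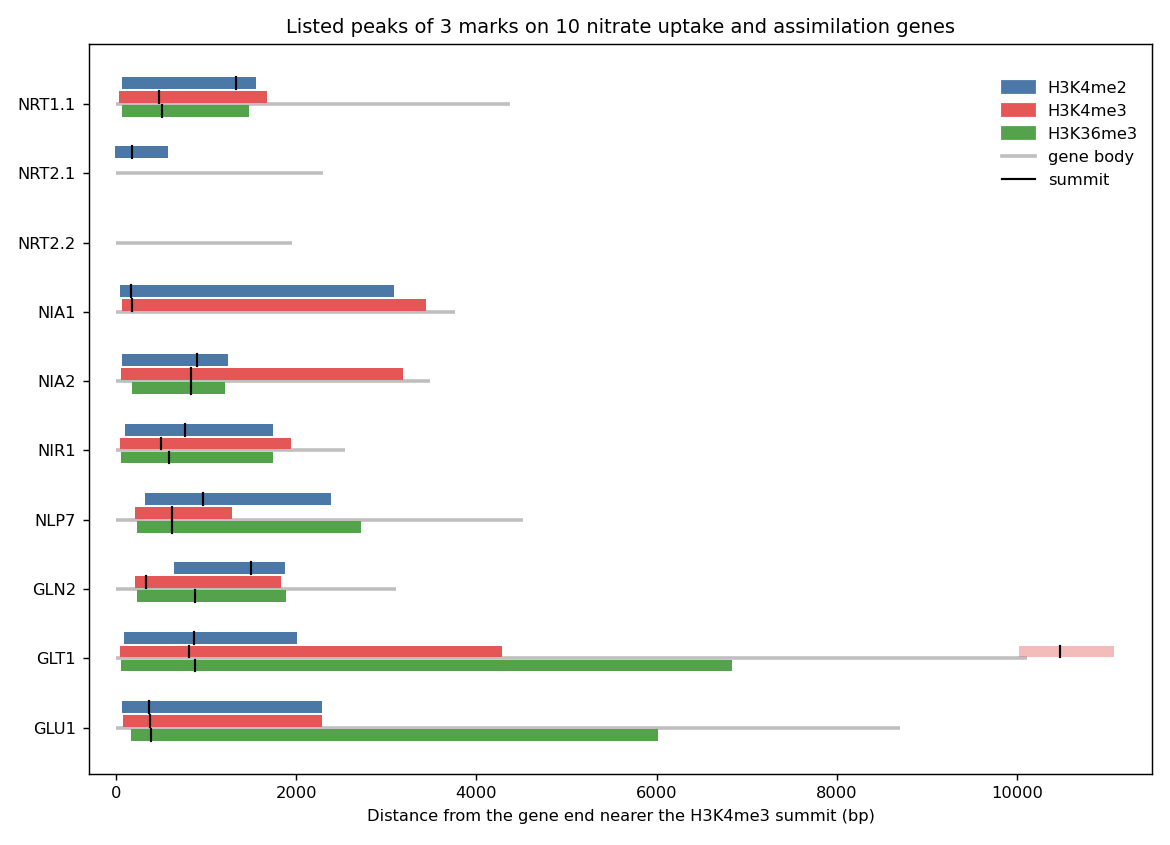
Listed peaks (coloured bars) and their summits (black ticks) on each gene body (grey line), drawn by distance in bp from the gene end nearer the H3K4me3 summit (nearer the H3K4me2 summit for NRT2.1, and the end with the lower coordinate for NRT2.2, which had no peak). The pale bar at GLT1 is the peak that overlaps it by 91 bp and was not counted. H3K4me3 runs along 89.9% of NIA1 and 90.0% of NIA2, and H3K36me3 reaches far beyond H3K4me3 in GLT1, GLU1 and NLP7.

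NRT1.1, a transporter of low and high nitrate concentrations that also acts as a nitrate sensor, was the uptake gene among the members with all 3 marks. Its H3K4me3 peak lay on chromosome 1 from 4105258 to 4106905 (TAIR10, as all coordinates here), with a fold of 7.59 over total H3, and 32.4% of the peaks in that list had a lower fold. Its H3K4me2 peak, from 4105289 to 4106778, had a fold of 3.86, with 63.2% of its list lower. Its H3K36me3 peak, from 4105289 to 4106702, had a fold of 3.03 and stood near the bottom of its list, with 0.437% of peaks lower. That H3K36me3 peak had a −log10 p of 57.9, where the weakest peak in the list had 55.2. The 3 peaks began 35 to 66 bp inside the gene and covered 32.3% to 37.6% of its body. The H3K4me3 and H3K36me3 summits were 26 bp apart, and the H3K4me2 summit lay 855 bp from that of H3K4me3, a distance larger than in 95.4% of the 16324 genes with both marks.

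NRT2.1 and NRT2.2, which encode high-affinity nitrate transporters, lie 847 bp apart on chromosome 1 with no protein-coding gene between them. NRT2.1, the main high-affinity transporter of roots, had 1 listed peak, H3K4me2 from 2524010 to 2524598, with a fold of 2.54 and 22.1% of the list lower. NRT2.2 had none. A gene carries H3K4me2 alone in 15.3% of all genes and no listed mark in 21.4%. Around both genes a stretch of 18705 bp held no listed H3K4me3 peak and one of 18741 bp no listed H3K36me3 peak, and the numbering of the called peaks runs on without a gap across both stretches. No called H3K4me3 or H3K36me3 peak had therefore been left out there, which was so for 44.7% of all genes without H3K4me3 and 37.7% of those without H3K36me3. For H3K4me2, 2 called peaks between the listed peaks on either side of NRT2.2 had been left out, at positions the files do not give. The genes are close relatives, and the treatment of reads that match several places is not stated in the sources used, so the peaks of these genes are uncertain.

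The nitrate reductase genes had some of the longest H3K4me3 domains in the list and little or no listed H3K36me3. NIA1 had an H3K4me3 peak of 3382 bp on chromosome 1 from 29236038 to 29239419, the 22nd widest of 17686. NIA2, which supplies most of the enzyme activity in seedlings, had one of 3138 bp on chromosome 1 from 14158507 to 14161644, the 36th widest. The median H3K4me3 peak was 834 bp wide. In height the 2 peaks were below the middle of the list, with folds of 7.54 for NIA1 and 7.70 for NIA2 and 31.9% and 33.7% of the list lower. They covered 89.9% of NIA1 and 90.0% of NIA2, against a median of 36.5% over the 17194 genes with H3K4me3. Coverage of 80% or more was found in 38 of the 5850 genes of at least 3000 bp that carried H3K4me3, and NIA1 and NIA2 were 2 of these 38.

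The pair differed in the other marks. NIA1 carried H3K4me2 along 80.7% of its body, in a peak from 29236400 to 29239435 with a fold of 5.95 and 90.5% of the list lower, the highest rank for H3K4me2 among the members. NIA2 carried it along 33.8%, from 14158518 to 14159695, with a fold of 2.93 and 35.5% of the list lower. NIA1 had no listed H3K36me3, a combination found in 12.9% of all genes. NIA1 ranked 7th for the width of its H3K4me3 peak among the 3689 genes with H3K4me3 and without H3K36me3, whose median was 762 bp. The listed H3K36me3 peaks nearest to NIA1 lay 4146 bp and 7253 bp away, and 3 called peaks between them had been left out, so a weaker H3K36me3 peak on NIA1 is possible. NIA2 had a short H3K36me3 peak of 1030 bp from 14158637 to 14159666, with a fold of 3.00, 0.311% of the list lower and a −log10 p of 56.8. H3K36me3 covered 0.328 times as much of NIA2 as H3K4me3 did. That ratio was lower than in all but 0.23% of the 13505 genes with both marks. The median ratio was 1.78, and 2.03 among those at least as long as NRT2.2. The H3K4me3 and H3K36me3 summits of NIA2 fell on the same base.

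**Figure D2:**
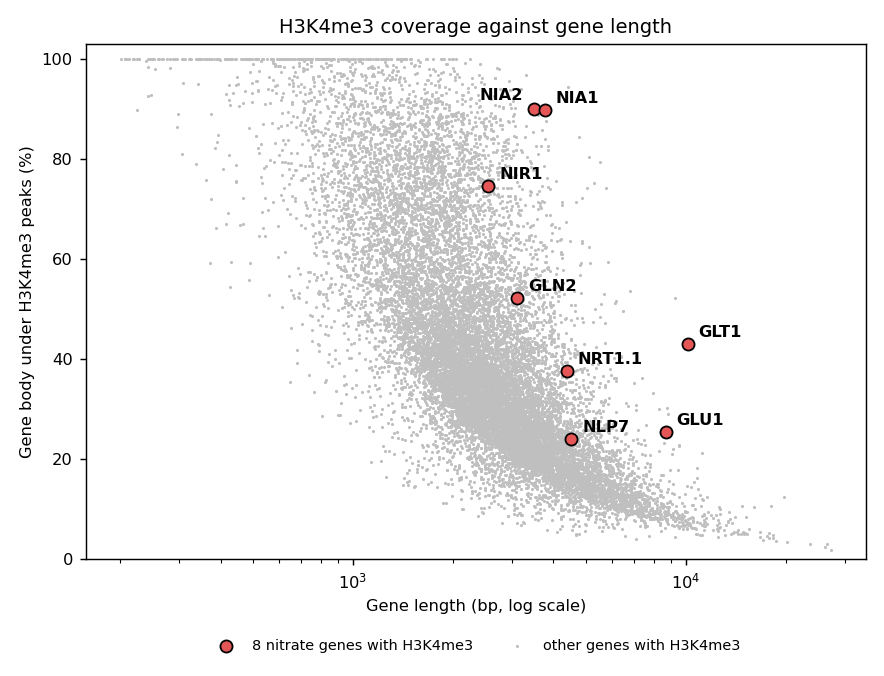
Percent of the gene body under H3K4me3 peaks against gene length in bp (log scale), for the 8 nitrate genes with the mark (red) and other genes with at least 200 bp under H3K4me3 (grey). NIA1 and NIA2 lie at 89.9% and 90.0%, above nearly all genes of their length, while NLP7 lies within the bulk at 24%.

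NIR1, which encodes the plastid nitrite reductase that draws electrons from ferredoxin, carried all 3 marks. Its H3K4me3 and H3K4me2 peaks were broad, with 96.9% and 87.9% of their lists narrower. The H3K36me3 peak was of middle width, with 53.5% of its list narrower. H3K4me3 covered 74.5% of the gene, on chromosome 2 from 6810439 to 6812336, with a fold of 9.55 and 64.1% of the list lower. H3K36me3 covered 66.0%, from 6810458 to 6812138, with a fold of 5.49 and 44.4% lower. H3K4me2 covered 64.2%, from 6810503 to 6812138, but at a fold of 2.06, which left 4.77% of its list lower, the lowest H3K4me2 rank by fold among the members. By −log10 p the lowest was GLN2, with 6.99% of the list lower, against 9.26% for NIR1. NIR1 was thus unlike the 2 reductase genes upstream of it in the pathway, with H3K36me3 of middle rank and weak H3K4me2.

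The genes of ammonium assimilation all carried the 3 marks. GLN2, the plastid glutamine synthetase, had H3K4me3 on chromosome 5 from 13830638 to 13832261 (fold 8.39, with 42.4% of the list lower) and H3K36me3 from 13830660 to 13832320 (fold 4.68, with 24.1% lower). Its H3K4me2 peak, from 13831077 to 13832309, was weak (fold 2.13, with 7.44% lower) and began 648 bp inside the gene, the farthest of any member peak. GLN2 was the member whose summits were most scattered, as the H3K36me3 summit lay 545 bp and the H3K4me2 summit 1172 bp from that of H3K4me3. Smaller distances were found in 96.9% and 97.5% of genes with the 2 marks in question.

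GLT1 and GLU1, the glutamate synthases that use NADH and ferredoxin, are the longest members, at 10110 bp and 8704 bp, and carried wide H3K36me3. On GLT1 the H3K36me3 peak spanned 6778 bp of chromosome 5 from 21700248 to 21707025, with a fold of 6.85 and 83.9% of the list lower. On GLU1, the main form in leaves, it spanned 5850 bp of chromosome 5 from 1129952 to 1135801, with a fold of 7.24 and 91.1% lower. These peaks were the 149th and 239th widest of 13491 and covered 67.0% and 67.2% of the genes, close to the median of 65.9% over all genes with the mark. The genes differed in H3K4me3. GLT1 had the 3rd widest H3K4me3 peak of the list, 4247 bp from 21700231 to 21704477, at a fold of 8.23 with 40.0% of the list lower. GLU1 had one of 2203 bp from 1129869 to 1132071, the 260th widest, at a fold of 11.0 with 89.7% lower. H3K4me2 was of middle rank on both, at folds of 2.94 on GLT1 (21700276 to 21702193, 35.9% of the list lower) and 3.57 on GLU1 (1129859 to 1132069, 55.5% lower). The 3 summits of GLU1 lay within 17 bp of each other.

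NLP7, the transcription factor that binds nitrate and drives the primary nitrate response, had the strongest trimethyl marks of the members. Its H3K4me3 peak, on chromosome 4 from 12479737 to 12480821, had a fold of 12.9 and was 128th of 17686 by fold, with 99.3% of the list lower. Its H3K36me3 peak, from 12479761 to 12482254, had a fold of 8.08 and was 263rd of 13491, with 98.1% lower. The H3K4me3 peak was the narrowest among the members, at 1085 bp and 24% of the gene. The wide peaks of NIA1, NIA2 and GLT1 had 31.9% to 40.0% of the list lower, but that of GLU1, at 2203 bp, had 89.7%. H3K4me2, from 12479852 to 12481917, had a fold of 2.85 with 32.9% of the list lower. Among the 8 other NLP genes, 7 carried H3K4me3 with 22.3% to 70.5% of the list lower and 6 carried H3K36me3 with 9.58% to 89.4% lower, so NLP7 had the highest rank of its family for both marks.

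**Figure D3:**
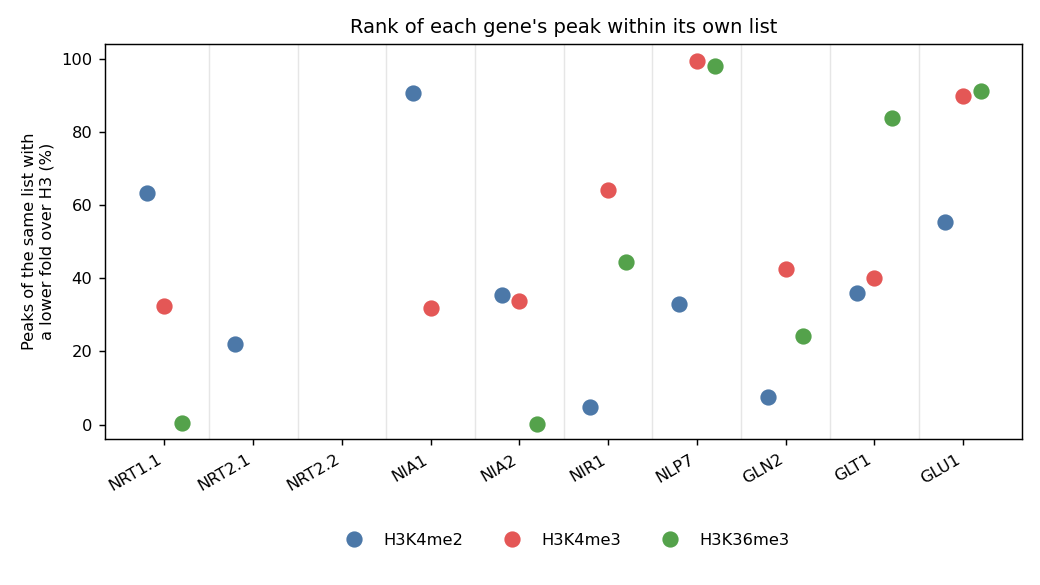
Percent of the peaks in the same list that have a lower fold over H3, for the listed peak of each mark (colour) on each gene. A gene with no point for a mark had no listed peak of it. H3K36me3 is near 0 on NRT1.1 and NIA2, between 24.1% and 44.4% on NIR1 and GLN2, and above 80% on NLP7, GLT1 and GLU1.

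Ranked by fold within each list, the members spread widest in H3K36me3, from 0.311% to 98.1% of the list lower. In the share of the gene body covered they spread least in this mark, from 29.5% to 67.2% where it was carried, against 24% to 90.0% for H3K4me3 and 19.0% to 80.7% for H3K4me2. Of the 5 genes for nitrate uptake and nitrate reduction, H3K36me3 was unlisted on NRT2.1, NRT2.2 and NIA1 and near the bottom of its list on NRT1.1 and NIA2. On the 5 genes for the regulator, nitrite reduction and ammonium assimilation, 24.1% to 98.1% of the list was lower. These groups were drawn with the ranks known, so the split is a description and carries no test. H3K36me3 is carried by 49.9% of all genes and by 67.0% of those at least as long as NRT2.2. In H3K4me3 the groups lay closer together, with NIA2 at 33.7% next to GLT1 at 40.0%. H3K4me3 was unlisted on NRT2.1 and NRT2.2, and NRT1.1, NIA1 and NIA2 lay between 31.9% and 33.7%. The other 5 genes lay between 40.0% and 99.3%, with GLT1 at 40.0% and GLN2 at 42.4%. The order by H3K36me3 rank was NLP7, GLU1, GLT1, NIR1, GLN2, NRT1.1 and NIA2, and with a single pooled value per gene it cannot be told which neighbours in it differ. The median rank of the 7 H3K36me3 peaks was 44.4%, against 51.2% over all genes with the mark, the 8 H3K4me3 peaks had a median of 41.2% against 52.9%, and the 9 H3K4me2 peaks one of 35.5% against 54.1%. Ranked by −log10 p instead, the members' median was 64.2% for H3K36me3, against 51.4% over all genes with the mark, so the ranking decides on which side of all genes it falls. For H3K4me3 it was 50.7% against 52.8%, and for H3K4me2 37.6% against 54.1%.

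In extent, H3K36me3 covered more of the gene body than H3K4me3 in 4 of the 7 genes with both marks and less in 3. The ratio of the covered lengths was 2.66 on GLU1, 2.3 on NLP7, 1.56 on GLT1 and 1.02 on GLN2, and 0.886 on NIR1, 0.858 on NRT1.1 and 0.328 on NIA2. For GLT1 the H3K4me3 length, 4338 bp, includes the 91 bp under the peak with its summit in ACBP1. Over all genes with both marks, H3K36me3 covered more in 81.1%, and in 88.0% of those at least as long as NRT2.2. All 8 H3K4me3 peaks began 35 to 209 bp from a gene end, and their summits lay 185 to 830 bp from it. The direction of transcription is not in the gene table, so that end is called here only the end nearer the summit. Because the end was picked by the summit, the summit's nearness to it is partly built in. H3K4me3 and H3K36me3 summits were within 100 bp of each other in 6 of the 7 genes (72.9% of all genes with both marks), with GLN2 the exception.

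**Figure D4:**
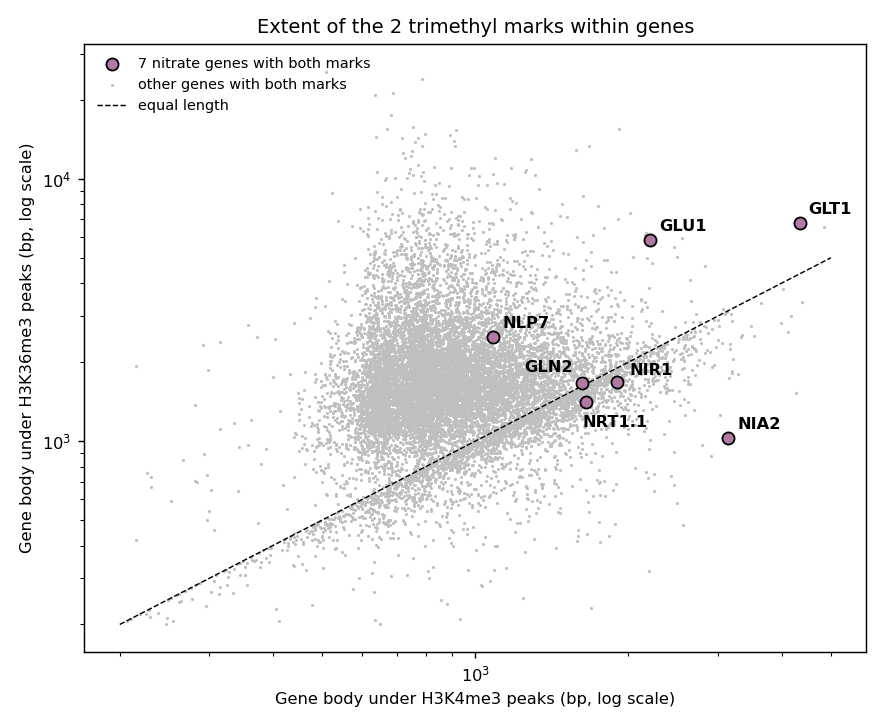
Gene body under H3K36me3 peaks against gene body under H3K4me3 peaks, in bp on log scales, for the 7 nitrate genes with both marks (purple) and other genes with at least 200 bp of each (grey). NIA2 lies far below the line of equal length, at 1030 bp of H3K36me3 and 3138 bp of H3K4me3, and GLU1, GLT1 and NLP7 lie above it.

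Other genes of nitrogen uptake and assimilation were taken from a list of 78, chosen for their known roles, that holds 26 transporters, 12 genes of ammonium assimilation, 29 regulators and 11 genes for cofactors and reductant. Of these, 70 carried H3K4me2 (89.7%), 61 carried H3K4me3 (78.2%), 49 carried H3K36me3 (62.8%) and 47 carried all 3 marks (60.3%). The shares of all genes were 75.0%, 62.7%, 49.9% and 46.6%. Among genes at least as long as NRT2.2 they were 88.1%, 79.1%, 67.0% and 64.2%. The shares of the 78 genes, some of which are shorter, lie near these. H3K36me3 was carried by 7 of the 26 transporters, 7 of the 12 ammonium assimilation genes, 24 of the 29 regulators and 11 of the 11 cofactor and reductant genes. The transporter group thus stood lowest for this mark. Among the members, H3K36me3 was carried by 1 of 3 uptake genes, too few to set beside the 26 transporters. The uptake genes without it, NRT2.1 and NRT2.2, are close relatives whose peaks are uncertain.

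**Figure D5:**
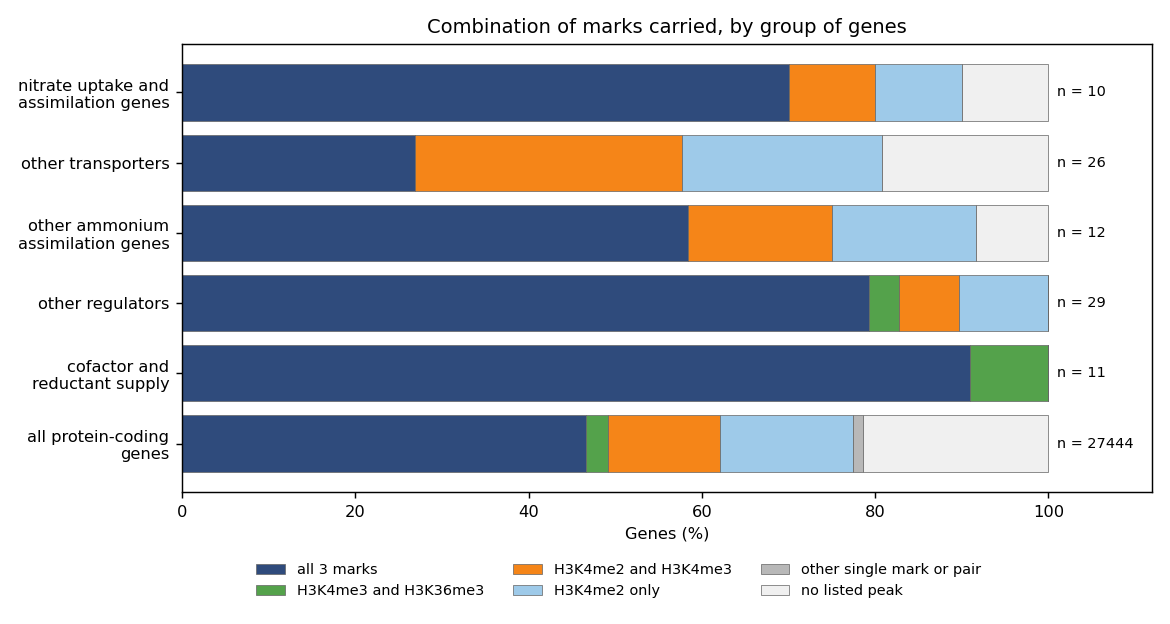
Percent of genes with each combination of marks, for the 10 nitrate genes, for 4 groups of other nitrogen genes and for all 27444 protein-coding genes, with the number of genes beside each bar. All 3 marks are found on 70.0% of the nitrate genes and 46.6% of all genes (64.2%, not drawn, of those at least as long as NRT2.2). The other groups stand at 26.9% (transporters), 58.3% (ammonium assimilation genes), 79.3% (regulators) and 90.9% (cofactor and reductant genes).

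No listed peak was found on 6 of the 78 genes: NRT1.5, which loads nitrate into the xylem, NRT2.3, NRT2.4, NRT2.6, the ammonium transporter gene AMT1;3 and the cytosolic glutamine synthetase gene GLN1;5. With NRT2.2, 4 of the 7 NRT2 genes were without a listed mark, beside 7.69% of the 78 genes and 21.4% of all genes. Because the treatment of reads that match several places is not stated, this count for related genes is uncertain. H3K4me2 alone was found on 11 genes (14.1%, near the 15.3% of all genes): NRT1.6, NRT1.8, NRT1.9, NRT1.11, AMT1;5, GLN1;4, GDH3, NLP3, ANR1, AT3G25790 and NRT3.1, the partner protein that NRT2.1 needs for transport. H3K4me2 and H3K4me3 without H3K36me3, the state of NIA1, was found on 12 (15.4%, near the 12.9% of all genes): NPF6.2, NRT1.7, NRT1.12, NAXT1, NRT2.5, SLAH3, AMT1;4, AMT2, GLN1;1, ASN1, NLP9 and HRS1. NIA1 had H3K4me3 over 89.9% and H3K4me2 over 80.7% of its body, and ASN1, an asparagine synthetase gene of 3592 bp, had them over 88.8% and 87.6%. By fold, 31.9% of the H3K4me3 list and 90.5% of the H3K4me2 list were lower than the peaks of NIA1, against 14.5% and 34.4% for ASN1. Only LBD37, a repressor of nitrogen-responsive genes, and CNX7, for the molybdenum cofactor of nitrate reductase, carried both trimethyl marks without H3K4me2, a state found in 2.65% of all genes, and the H3K36me3 peak of CNX7 also lies over a neighbouring gene.

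The highest H3K4me2 folds of the 78 were 9.54 on NRT2.5, a transporter induced by nitrogen starvation, 7.60 on GLN1;1 and 7.45 on CBL9. For H3K4me3 they were 12.9 on LBD39, a relative of LBD37, 11.9 on AT3G60320 and 11.5 on CIPK8, a kinase of the nitrate response. For H3K36me3 they were 8.48 on CIPK8, 7.74 on AT3G60320 and 7.11 on NLP6. NLP7 stood at 12.9 for H3K4me3 and 8.08 for H3K36me3, within the range of these regulators. NRT2.5 had 99.5% of the H3K4me2 list lower and 1.25% of the H3K4me3 list, while NLP7 stood at 32.9% and 99.3%.

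The listed gene most like each member was found from 6 values, the percent of the body under each mark and the percent of each list with a lower fold, by Euclidean distance. A mark without a listed peak was set to 0 in both of its values, so a missing mark weighs as the lowest rank. GLN2 was closest to NLP5 (14.7 points), NRT2.1 to NRT1.6 (19.8), NIR1 to AT2G43760 (21.9), GLU1 to CNX5 (29.5), NRT1.1 to ASN2 (31.0), NLP7 to CIPK8 (31.6) and GLT1 to CBL1 (31.8). The largest distances were those of NIA1, at 40.8 points from GDH1, and NIA2, at 52.1 points from RFNR1. GDH1 carried all 3 marks, unlike NIA1, whose combination was shared by its second nearest gene, GLN1;1, at 45.5 points. NRT2.2 tied with the 6 genes without a listed peak, as all 6 values are then 0. The trimethyl peaks of AT2G43760 also lie over a neighbouring gene, so their values are uncertain.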

How the data were processed

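Native ChIP-seq peaks were taken from 3 deposited lists. The submitters' processing notes name MACS2, Bowtie2 2.2.6, SAMtools 1.3, Trimmomatic 0.33, Picard 2.2.4 and R 3.3.2, without their roles or settings, and the build TAIR10. The deposited fold (a ratio over pooled H3), −log10 p and score (the −log10 p times 10, cut to whole numbers) are the authors' peak values. They rank peaks within a list only, and a fold may not be set against H3 at the same place. The deposited peaks are numbered along the genome, and numbers are missing: 62.8%, 76.3% and 62.8% of the called H3K4me2, H3K4me3 and H3K36me3 peaks were kept. The sources used do not say how they were chosen.

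Genes came from the RefSeq table for TAIR10.1, which gives no strand or exons and whose coordinates are not printed. Peak sequence lay in genes most often with no offset (93.5%, 96.2% and 98.3%), and less at each offset of 100 to 1000 bp tried. A gene under 400 bp needed 50% of its body covered. Overlaps were computed with Python 3.11.15 and pandas 2.3.3 and tested on simulated peaks. A peak's rank is the percent of its list with a lower fold, for the peak with the highest −log10 p on the gene. Members and the list of 78 other genes were chosen with earlier results of these data known. All 10 members were named, and of the 78 the genes without all 3 marks, the 3 highest folds per mark and the gene nearest each member. All 78 identifiers were found in the gene table, and a gene goes by its identifier where neither the table's symbol nor its synonyms hold its usual name (NPF6.2 is a synonym there). The alternatives were other overlap rules, stronger peaks only, equal list lengths, ranks by −log10 p and longer genes as background.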

Additional observations from a re-analysis of the deposited data

How the results depend on the processing

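The 7 H3K36me3 carriers, 9 H3K4me2 carriers, 8 H3K4me3 carriers and 7 genes with all 3 marks were the same number when 1 bp of overlap sufficed and when the peak's summit had to be inside the gene. With 50% of the body required, 2 members carried H3K4me2, 4 carried H3K4me3 and 1 (NIR1) carried all 3. Of the 78 other genes, 34 carried H3K4me2 and 27 carried H3K4me3, and the shares of all genes were 34.3% and 19.0%. With the strongest 50% of each list, 3, 4 and 4 members carried H3K4me2, H3K4me3 and H3K36me3 and 1 (GLU1) carried all 3. The other genes' counts were 33, 30 and 17, and the shares of all genes were 40.7%, 33.2% and 25.7%. The wide H3K4me3 peaks of NIA1 and NIA2, over 89.9% and 90.0% of their bodies, were among those dropped at this setting. With all lists cut to the length of the shortest, 3 members carried H3K4me2 and 2 carried all 3 marks. H3K4me2 was then carried by 39 other genes and by 47.0% of all genes. These settings need more coverage or drop peaks, so lower counts follow from their construction, and the shares of all genes fell too, to 8.54%, 9.09% and 26.8% for all 3 marks. Ranked by −log10 p, 4 of the 24 member peaks moved by over 10 percentage points, by at most 19.8, and the members' median H3K36me3 rank was 64.2% in place of 44.4%. No paired analysis was possible because each list holds 1 pooled value per peak. Without replicates or read depths, no difference between 2 peaks can be set against an error.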
